A study of Homo sapiens with 4 samples.

Results

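The mitochondrial carriers of the SLC25 family were taken as all genes whose current symbol begins SLC25A, leaving out SLC25A37 and SLC25A38. On the array, 46 genes with 68 probes met this rule, among 20045 genes with a single named symbol. Of the 46, 43 were carrier genes and 3 were the transcribed pseudogenes SLC25A3P1 and SLC25A51P4 and the antisense RNA SLC25A21-AS1. SLC25A6 and SLC25A14 were not analysed here, since no probe was named for them. The data were 4 Illumina bead arrays of K562, a human erythroleukemia line from chronic myeloid leukemia: 2 arrays of a stable line with a short hairpin RNA against KLF3 and 2 of a stable line with a control hairpin, both grown in RPMI1640 with serum. The comparison addresses which carrier transcripts differ when KLF3, a zinc-finger repressor of the Krüppel-like factor family, is depleted. Each group stands for 1 line, and nothing in the labels says that its 2 arrays came from separate cultures, so p-values measure the spread between arrays, which may be technical.

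SLC25 carriers sit in the inner membrane of the mitochondrion and exchange nucleotides, phosphate, carboxylates, amino acids and cofactors between the cytosol and the matrix. They are encoded in the nucleus and imported through the TOM complex and the TIM22 translocase. In erythroid cells the mitochondrion makes heme and iron-sulfur clusters, so carriers of substrates and cofactors serve both energy metabolism and heme synthesis.

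Between 15479 and 16182 probes per array were detected (detection p under 0.01), and across genes the duplicates had r = 0.995 for knockdown and 0.997 for control. Neither of the 2 KLF3 probes was detected on any array, so the arrays give no check of the depletion. Every measured K562 marker of the list used here (HBG1, HBG2, HBE1, GATA1, TAL1, KLF1, TFRC and EPOR) was detected on all 4 arrays, and the lymphoid markers CD3E, CD4, CD8A, MS4A1 and CD79A and the fibroblast markers COL1A1 and COL1A2 on none. Mean deposited intensities in knockdown exceeded control for HBE1 (11430 against 3423), HBG1 (20379 against 14922), HBG2 (21069 against 18300) and KLF1 (257 against 223). For TFRC (2906 against 4454) and GATA1 (459 against 516) they were lower, and for TAL1 and EPOR the groups overlapped. The epithelial markers EPCAM and KRT18 were detected on every array. Of the myeloid markers, LYZ, encoding lysozyme, was higher on its brighter probe, with deposited intensities of 799 and 909 on knockdown arrays and 311 and 340 on control arrays, and 1 of 2 CD14 probes was detected on the knockdown arrays alone; the part of such cells in the carrier results was not tested. Fewer cells with a transcript and less transcript per cell cannot be told apart in RNA of whole cultures. Values below are background-corrected, quantile-normalised intensities on the log2 scale unless stated otherwise, and differences are knockdown minus control.

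Of the 43 carrier genes, 28 were tested, because at least 1 probe was detected on both arrays of a group. In the knockdown line 6 of the 28 carriers rose and 0 fell (limma, Benjamini-Hochberg adjusted over 9530 genes). Among all genes tested 19.4% rose and 20.7% fell, 40.0% together. The share of carriers that rose, 21.4%, lay close to that background. The same shares of all genes are the background for the counts by role below. The 6 were SLC25A21, SLC25A42, SLC25A24, SLC25A51, SLC25A10 and SLC25A20, with increases between 1.31-fold and 1.89-fold. The pseudogene SLC25A51P4 also rose. The median difference was 0.09 for the 28 carriers and -0.01 for all genes. An absolute difference above 0.5 was found for 3 of the 28 carriers (10.7%), against 19.2% of all genes, and 17 carriers (60.7%) differed by less than 0.2, against 42.5% of all genes. The groups did not overlap for 22 of the 28 (78.6%), against 73.5% of all genes. Of the called genes of the whole array, 48.3% were higher. Scaling to a median in place of quantile normalization moved this share in a direction that depended on the median used. With the median of the kept probes, 6 carriers rose and 0 fell, and 55.1% of the called genes were higher. With the median of all probes, chosen after seeing the data, 5 carriers rose and 1, SLC25A26, fell, and 37.4% were higher.

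**Figure D1:**
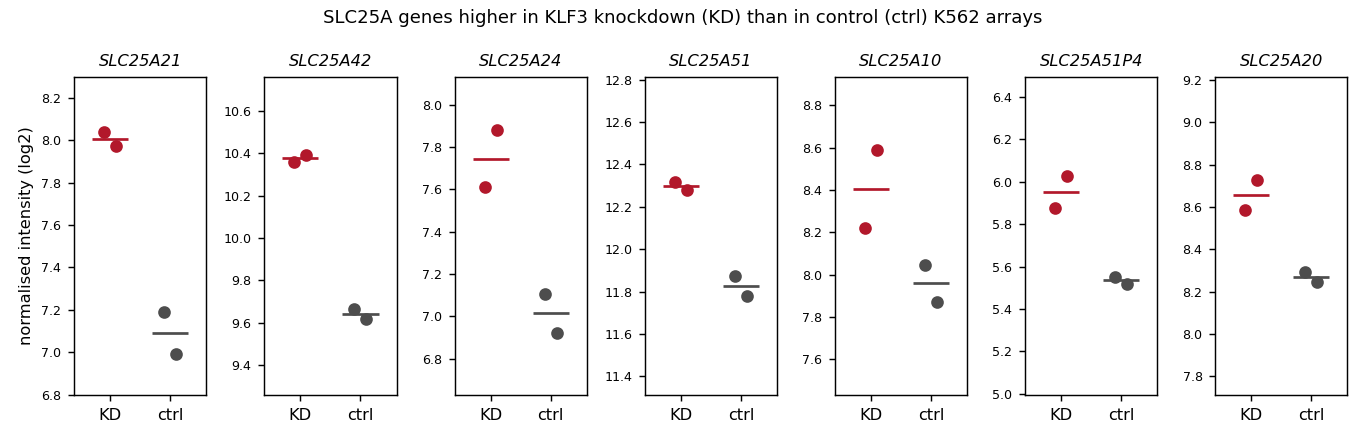
Normalised intensity (log2) of the 7 SLC25A genes that rose in KLF3 knockdown (KD, red) relative to control (ctrl, grey) K562 arrays. Points are the 2 arrays of a group, horizontal lines their mean, and each panel spans the same number of log2 units. In each panel both knockdown arrays lie above both control arrays, and in SLC25A10 the gap between the groups is small next to the spread of the knockdown arrays.

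Carriers of carboxylates were the role with the largest single increase. SLC25A21, the oxodicarboxylate carrier that exchanges 2-oxoadipate for 2-oxoglutarate in lysine and tryptophan breakdown, read 8.04 and 7.98 on the knockdown arrays, against 7.19 and 6.99 on the control arrays. The groups were far apart compared with either pair of replicates. The increase was 0.92 (SE 0.10, limma adjusted p = 0.00138), or 1.89-fold. The deposited intensities of its probe, before background correction, were 371 and 342 on knockdown arrays and 262 and 241 on control arrays, and without background correction the log2 increase was 0.58. Only the size of the change, not the call, moved. Its antisense RNA SLC25A21-AS1, with 2 probes, was detected by 1 of them on 1 control array and was not tested.

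SLC25A10, which exchanges malate and succinate for phosphate, read 8.22 and 8.59 on the knockdown arrays, against 8.05 and 7.87 on the control arrays. One knockdown array lay near the control range and the other well above it. The increase was 0.45 (SE 0.14, limma adjusted p = 0.0441), and the call depended on single arrays. Without knockdown replicate 2 the increase was 0.26 (limma adjusted p = 0.133), without control replicate 1 it was 0.54 (limma adjusted p = 0.0942) and without control replicate 2 it was 0.36 (limma adjusted p = 0.206). Without knockdown replicate 1 it was 0.62 and passed (limma adjusted p = 0.0112). Calls over all genes also fell without a control array, to 911 genes higher without replicate 1 and 901 without replicate 2, against 1845 with all arrays. SLC25A10 also missed the threshold with arrays scaled to the median of all probes (limma adjusted p = 0.0604). The citrate carrier SLC25A1, which exports citrate for lipid synthesis, and the oxoglutarate-malate carrier SLC25A11, part of the malate-aspartate shuttle, did not pass, with differences of 0.13 and 0.25 and limma adjusted p of 0.281 and 0.0693. For SLC25A11 both knockdown arrays, at 7.72 and 7.58, were above the control arrays at 7.37 and 7.43. Of the 4 carboxylate carriers 2 thus rose and 0 fell, with a median of 0.35.

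Among carriers of nucleotides, coenzymes and vitamins, 2 of 6 tested rose and 0 fell. SLC25A42, which brings coenzyme A into the matrix in exchange for adenine nucleotides, read 10.36 and 10.39 on the knockdown arrays, against 9.67 and 9.62 on the control arrays. Both pairs of replicates were tight and the groups did not overlap. The increase was 0.73 (SE 0.08, limma adjusted p = 0.00146), or 1.66-fold. A second SLC25A42 probe gave 0.51 when every kept probe was fitted on its own (limma adjusted p = 0.0460), so both probes of this gene moved the same way. SLC25A51, the mitochondrial NAD+ carrier, read 12.32 and 12.28 on the knockdown arrays, against 11.88 and 11.78 on the control arrays, an increase of 0.47 (SE 0.08, limma adjusted p = 0.00745), or 1.38-fold. Without control replicate 2 the increase of SLC25A51 was 0.42 and did not pass (limma adjusted p = 0.0611).

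SLC25A51 has close copies, and its signal cannot be assigned with certainty among them. The transcribed pseudogene SLC25A51P4 on chromosome 11 rose by a like amount, 0.42 (SE 0.09, limma adjusted p = 0.0134), with 5.88 and 6.03 on the knockdown arrays, against 5.55 and 5.52 on the control arrays. It was detected on 1 of the 2 control arrays, and without background correction its difference was 0.14 (limma adjusted p = 0.0886). The paralog SLC25A52, also an NAD+ carrier, was not detected on any array, and a second SLC25A51 probe was detected on 1 control array alone.

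The other 4 of this role did not pass. SLC25A26, which imports the methyl donor S-adenosylmethionine, read 7.11 and 7.14 on the knockdown arrays, against 7.52 and 7.29 on the control arrays, a difference of -0.28 (SE 0.10, limma adjusted p = 0.0706). Its 3 kept probes all had negative differences, of -0.28, -0.15 and -0.10. With arrays scaled to the median of all probes SLC25A26 fell by 0.38 (limma adjusted p = 0.0374). SLC25A36, a pyrimidine nucleotide carrier, read 7.93 on both knockdown arrays, against 8.04 and 8.33 on the control arrays, a difference of -0.25 (limma adjusted p = 0.118). SLC25A16, genetically linked to coenzyme A import in yeast, and SLC25A17, a carrier of peroxisomes, differed by 0.08 and 0.04, and their groups overlapped.

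The promoters of SLC25A21, the carrier with the largest increase, and of SLC25A42 and SLC25A51, chosen after their values were seen, are shown because KLF3 is known to bind CACCC boxes in DNA. Each is the 250 bases before the RefSeq start of the gene on GRCh38.p14, read 5′ to 3′ on the gene's strand, and capitals mark CACCC on the strand shown or its complement GGGTG. The windows are chr14:37172607-37172856 on the minus strand for SLC25A21, chr19:19063744-19063993 on the plus strand for SLC25A42 and chr9:37904128-37904377 on the minus strand for SLC25A51.
SLC25A21: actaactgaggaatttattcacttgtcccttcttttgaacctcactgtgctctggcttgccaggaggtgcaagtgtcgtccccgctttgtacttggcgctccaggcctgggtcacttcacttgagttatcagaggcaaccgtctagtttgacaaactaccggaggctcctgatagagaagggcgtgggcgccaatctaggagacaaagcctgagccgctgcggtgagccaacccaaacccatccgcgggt
SLC25A42: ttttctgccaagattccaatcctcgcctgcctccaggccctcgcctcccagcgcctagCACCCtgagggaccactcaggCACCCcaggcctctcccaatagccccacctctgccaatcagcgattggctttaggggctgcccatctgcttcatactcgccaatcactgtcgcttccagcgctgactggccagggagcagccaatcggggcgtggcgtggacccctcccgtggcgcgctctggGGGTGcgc
SLC25A51: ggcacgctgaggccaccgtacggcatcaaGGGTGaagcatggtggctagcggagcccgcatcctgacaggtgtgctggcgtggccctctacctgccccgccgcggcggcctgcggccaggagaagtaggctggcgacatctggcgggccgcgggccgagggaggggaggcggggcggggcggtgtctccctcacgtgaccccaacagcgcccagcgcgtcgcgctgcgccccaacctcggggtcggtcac
SLC25A42 had 2 CACCC and 1 GGGTG, SLC25A51 had 1 GGGTG, and SLC25A21 had neither. Across RefSeq promoter windows of the same length, 54.7% of 35116 held CACCC on either strand, and 57.8% of the 11248 windows of tested genes did. Of the windows listed for the tested SLC25A genes, 4 of 7 windows of genes that rose (57.1%) and 12 of 28 windows of genes that did not pass (42.9%) held it, with some genes listed at more than 1 start. SLC25A24 had no match in either of its 2 windows, while SLC25A10 and SLC25A20 each had 1 CACCC. The longer CCACACCC, on either strand, was in 0 of the 7 windows of genes that rose. It was in 1 of the 28 of genes that did not pass (3.57%) and in 2.84% of the windows of tested genes. These matches describe letters in a window and not binding.

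Among the calcium-regulated carriers of ATP-Mg and phosphate, which set the adenine nucleotide pool of the matrix, 1 of 3 tested rose and 0 fell. SLC25A24 read 7.61 and 7.88 on the knockdown arrays, against 7.11 and 6.92 on the control arrays. The groups were separate although the arrays of each differed by more than those of SLC25A42. The increase was 0.73 (SE 0.12, limma adjusted p = 0.00578), or 1.66-fold, and 0.44 without background correction, again with the call kept. It rests on 1 of 3 probes, since the other 2 were not detected on both arrays of any group. Its paralogs did not pass: SLC25A25 differed by 0.18 and SLC25A23 by -0.13, with limma adjusted p of 0.209 and 0.259. The difference between the paralogs' responses was not tested. SLC25A41 was detected on 1 control array alone.

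Among carriers of amino acids and acylcarnitines 1 of 7 tested rose and 0 fell. SLC25A20, which carries acylcarnitines into the matrix for fatty acid oxidation, read 8.58 and 8.73 on the knockdown arrays, against 8.29 and 8.24 on the control arrays. The increase was 0.39 (SE 0.09, limma adjusted p = 0.0174), or 1.31-fold. Its second probe gave 0.26 and did not pass (limma adjusted p = 0.148, every kept probe fitted on its own). The call was lost without knockdown replicate 2 and without control replicates 1 and 2, each in turn, with limma adjusted p of 0.0587, 0.0757 and 0.0995.

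The other members of that role did not pass on the probes that stood for them. The aspartate-glutamate carriers of the malate-aspartate shuttle, SLC25A12 and SLC25A13, differed by -0.11 and 0.11 (limma adjusted p = 0.301 and 0.31). Their 95% intervals ran between -0.31 and 0.08 for SLC25A12 and between -0.08 and 0.30 for SLC25A13. The glutamate carrier SLC25A22 differed by -0.08, the branched-chain amino acid carrier SLC25A44 by -0.13 and the basic amino acid carrier SLC25A29 by 0.22. SLC25A15, the ornithine carrier of the urea cycle, differed by 0.03 on the probe that stood for it, with 9.32 and 9.24 on the knockdown arrays and 9.26 and 9.24 on the control arrays. Its other probe, however, gave 0.43 and passed in the fit of single probes (limma adjusted p = 0.0157), so the probes of SLC25A15 disagreed. The counts take SLC25A15 as not passing, on the probe that stood for it, and the disagreement leaves that uncertain.

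The carriers that serve oxidative phosphorylation directly did not pass. SLC25A5 and SLC25A4, ADP/ATP carriers that exchange matrix ATP for cytosolic ADP, differed by -0.11 and -0.15 (limma adjusted p = 0.315 and 0.274). SLC25A5 read 13.38 and 13.31 on the knockdown arrays, against 13.47 and 13.45 on the control arrays, and its 95% interval ran between -0.31 and 0.09. SLC25A4 read 10.98 and 11.19 on the knockdown arrays, against 11.24 and 11.23 on the control arrays, with an interval between -0.39 and 0.09. In both genes each knockdown array lay below each control array, by little. SLC25A5 has several processed pseudogenes, so its probe may share signal with them. The testis ADP/ATP carrier SLC25A31 was not detected on any array.

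The phosphate carrier SLC25A3 had 3 kept probes that did not share a direction. The probe that stood for it read 13.32 and 13.16 on the knockdown arrays, against 13.13 and 13.02 on the control arrays, a difference of 0.17 (limma adjusted p = 0.205). The other 2 probes gave -0.18 and 0.36 and did not pass either when fitted on their own.

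Carriers linked to glutathione, iron and membrane dynamics did not pass either. SLC25A39, which imports glutathione into the matrix, read 12.35 and 12.28 on the knockdown arrays, against 12.13 and 12.09 on the control arrays, a difference of 0.21 (SE 0.08, limma adjusted p = 0.0897). It passed without background correction at 0.20 (limma adjusted p = 0.0206) and with the authors' processed values at 0.20 (limma adjusted p = 0.0222). With an intensity trend in eBayes the difference of 0.21 passed too (limma adjusted p = 0.014). Its paralog SLC25A40 differed by 0.17 with overlapping groups. SLC25A28, mitoferrin-2, an iron importer, differed by 0.03 and its groups overlapped. SLC25A46, a carrier relative of the outer membrane that acts in mitochondrial fusion and fission, differed by -0.07, and SLC25A43, whose transport is not settled, by -0.14.

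**Figure D2:**
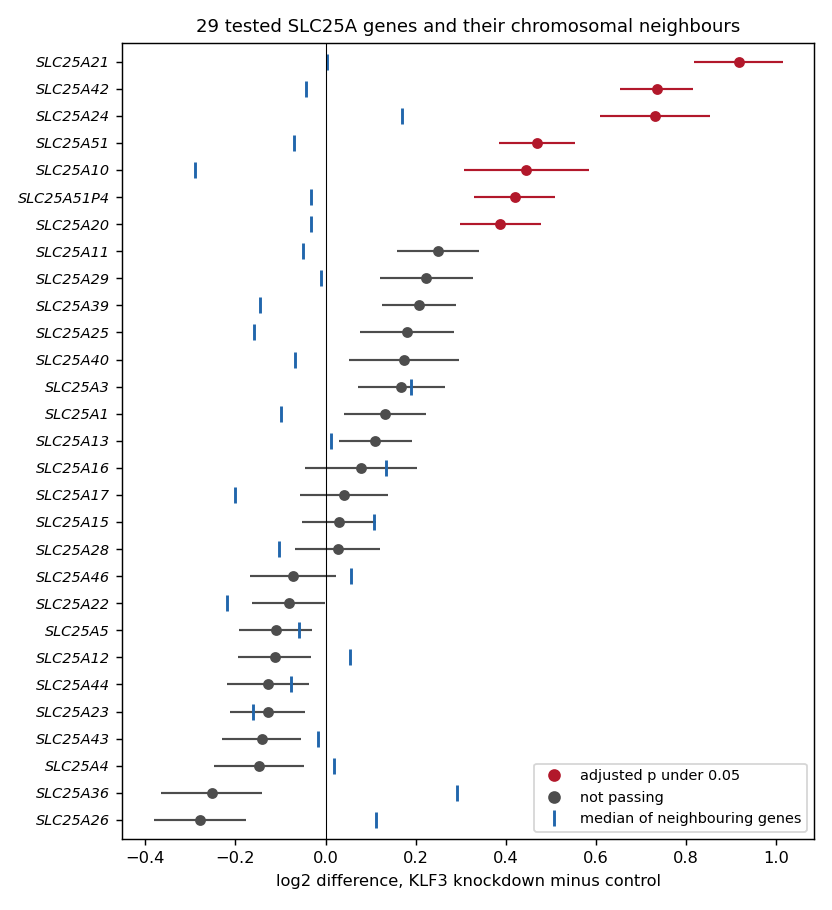
Log2 difference (KLF3 knockdown minus control) of the 29 tested SLC25A genes, with bars for the standard error of the limma fit. Red points passed an adjusted p of 0.05, grey points did not, and blue ticks give the median difference of up to 10 tested genes on each side of the gene on its chromosome. The 7 genes that rose lie between 0.39 and 0.92, while the medians of their neighbours lie between -0.29 and 0.17.

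The remaining 15 carrier genes were not tested because no probe was detected on both arrays of a group: SLC25A2, SLC25A18, SLC25A27, SLC25A30, SLC25A31, SLC25A32, SLC25A33, SLC25A34, SLC25A35, SLC25A41, SLC25A45, SLC25A47, SLC25A48, SLC25A52 and SLC25A53. They include the uncoupling-protein relatives SLC25A27 and SLC25A30 and the folate carrier SLC25A32. Over the 28 SLC25A probes that were not kept, single-array intensities lay between 94.7 and 165, with 23 of the 28 detected on no array. These probes set no fold in either direction, and a low transcript level would not be seen at this signal.

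The genes that rose were spread over chromosomes 14, 19, 1, 9, 17, 11 and 3, and 0 of the 29 tested members lay on chromosome 16, where the 458 tested genes had a median difference of 0.36 and 55.9% rose. Among the 20 nearest tested genes of each gene that rose, between 1 and 6 rose and between 3 and 9 fell. Of all genes tested, 19.4% rose and 20.7% fell. For SLC25A42 on chromosome 19, 1 neighbour rose and 5 fell. For SLC25A10 on chromosome 17, 2 rose and 9 fell, with a median of -0.29. The difference of each of the 7 lay above the median of its neighbours, which their selection as higher made likely. A regional effect was not tested. SLC25A36, by contrast, did not pass and had a negative difference in a stretch of chromosome 3 where 10 of its 20 neighbours rose.

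**Figure D3:**
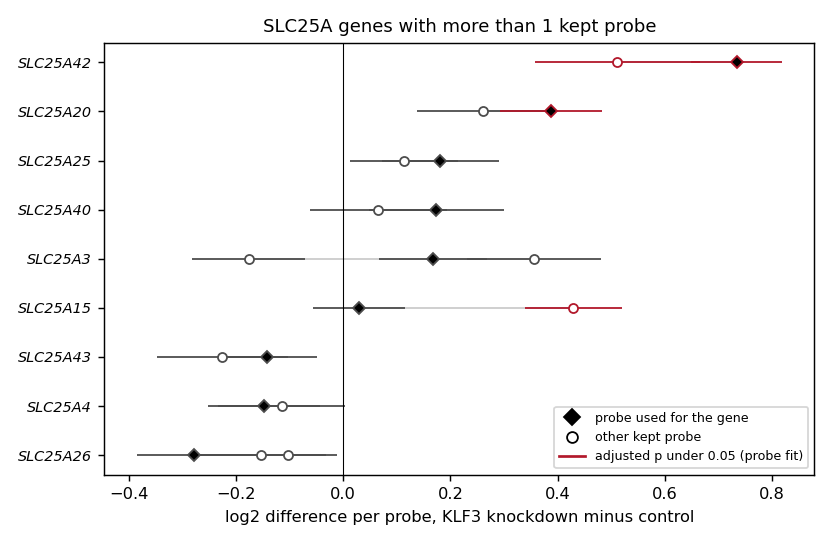
Log2 difference per probe (KLF3 knockdown minus control) for the 9 SLC25A genes with more than 1 kept probe, with bars for the standard error of a fit of single probes. Filled diamonds are the probes that stood for the gene, open circles the other kept probes, and red marks an adjusted p under 0.05 among probes. Both SLC25A42 probes passed, those of SLC25A15 lie at 0.03 and 0.43, and those of SLC25A3 between -0.18 and 0.36.

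Genes that act beside the carriers were read from 7 lists, written from general knowledge but with earlier results of these data known. The shares of all genes are the background for the counts of each list below. Of the members, 53 were tested, 15 rose (28.3%) and 8 fell (15.1%), against 19.4% and 20.7% of all genes. Without control replicate 1 these counts were 8 (15.1%) and 3 (5.66%), against 9.56% and 9.41% of all genes, and without control replicate 2 they were 6 (11.3%) and 4 (7.55%), against 9.45% and 9.27%. Without knockdown replicate 2, 14 rose (26.4%) and 4 fell (7.55%), against 15.9% and 17.2% of all genes. Of 3 tested carrier relatives with other symbols, 2 rose and 0 fell. MTCH2, a carrier homolog that acts as an insertase of the outer membrane, rose by 0.77 (SE 0.09, limma adjusted p = 0.00160), and UCP2, an uncoupling protein gene, by 0.42 (SE 0.09, limma adjusted p = 0.0114). MTCH1 differed by -0.04.

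On the import route of the carriers, 3 of 12 tested genes rose and 2 fell. AGK, an acylglycerol kinase that is also a subunit of the TIM22 complex, rose by 0.67 and TIMM22, its channel-forming subunit, by 0.56. The outer membrane receptor gene TOMM22 fell by 0.32. The limma adjusted p of AGK, TIMM22 and TOMM22 were 0.00354, 0.00576 and 0.0250.

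Other transporters of the inner membrane had 4 of 11 tested genes up and 0 down. MPC2, a subunit of the mitochondrial pyruvate carrier, rose by 0.97 (SE 0.08, limma adjusted p = 0.000571), from a family unrelated to SLC25. MPC2 read 10.10 on both knockdown arrays, against 9.10 and 9.15 on the control arrays. Its partner MPC1 differed by 0.18 and did not pass (limma adjusted p = 0.111). ABCB10, an ATP-binding cassette protein of erythroid mitochondria, rose by 0.58 and SFXN1, the serine transporter, by 0.60. Of 3 tested outer membrane genes of the list (VDAC1, VDAC3 and TSPO), TSPO fell by 0.26 (limma adjusted p = 0.0410) and the other 2 did not pass.

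Enzymes that use the carried substrates moved in part. Of 9 tested malate-aspartate and citrate shuttle enzymes 3 rose and 1 fell. GOT2, the mitochondrial aspartate aminotransferase, on chromosome 16, rose by 0.44, MDH1, the cytosolic malate dehydrogenase, by 0.43, and ACO1, the cytosolic aconitase that doubles as an iron sensor, fell by 0.43. Of 5 tested folate one-carbon enzymes 3 rose and 0 fell. SHMT1, MTHFD1 and MTHFD2 rose by 0.55, 0.51 and 0.44. SHMT2 and MTHFD1L differed by 0.17 and 0.22 and did not pass (limma adjusted p = 0.229 and 0.21). Of 10 tested regulators of mitochondrial biogenesis 0 rose and 4 fell. The nuclear receptor gene ESRRA fell by 0.77 and the coactivator genes PPRC1 and PPARGC1B by 0.66 and 0.64 (limma adjusted p = 0.00131, 0.00302 and 0.00745).

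**Figure D4:**
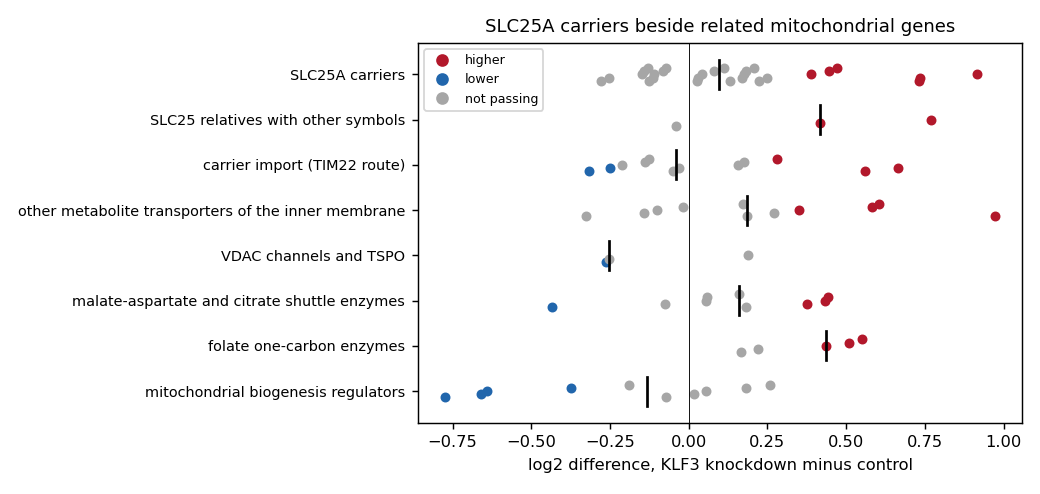
Log2 difference (KLF3 knockdown minus control) of the 28 tested SLC25A carriers and of the tested members of 7 lists of related genes. Each point is a gene, red where it rose, blue where it fell and grey where it did not pass, and black bars are the median of the list. The medians lie between -0.25 and 0.44, and that of the carriers at 0.09.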

How the data were processed

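Total RNA was amplified and biotin-labelled with Illumina's kit, per the labels' protocols. The deposited scanner table holds linear bead intensity values, not normalized between arrays, and detection p-values for 47322 probes. The authors' processed intensity table is quantile-normalized, judged from its values; the program behind it is not given here. The scanner values went through neqc (limma 3.58.1, R 4.3.3), which corrects for background, adds an offset of 16, quantile-normalizes and takes log2, so folds of dim genes are understated. Probes detected (p under 0.01) on both arrays of a group were kept, 15722 in all. Symbols came from the platform annotation, updated through RefSeq genes of GRCh38.p14; 30073 of 30112 matched. The kept probe with the highest mean stood for each of 9530 genes. The groups were compared with lmFit and eBayes (2 residual and 4.33 prior degrees of freedom), two-sided, Benjamini-Hochberg adjusted over all genes, threshold 0.05. An exact permutation of 2 against 2 arrays cannot go below p = 0.333. The fit was tested on simulated data. SE is that of the fit.

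Every SLC25A gene but SLC25A37 and SLC25A38 is accounted for, those that passed with all 4 values. Of each related list up to 3 passing members were to be named. MTCH1, MPC1, SHMT2, MTHFD1L and the outer membrane genes that did not pass were added after their values were seen. The members, their roles and the 7 related lists (70 entries) were chosen with earlier results of these data known. Promoter sequences are from RefSeq; the rule asked for the largest increase and the largest decrease, and no carrier passed as lower. Probe sequences were not used here. The number of arrays limits the precision. Alternatives covered scaling, background correction, the authors' values, the filter, the probe summary, the eBayes trend, a replicate block and each array left out, with the probes kept.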

Additional observations from a re-analysis of the deposited data

How the results depend on the processing

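SLC25A21, SLC25A42 and SLC25A24 passed under all 15 alternatives run, with log2 increases of 0.57 to 1.02, 0.62 to 0.81 and 0.43 to 0.86, and SLC25A51 under 14, with 0.42 to 0.52. SLC25A20 passed under 11 and SLC25A10 under 8 of 15, and SLC25A51P4 under 9 of 14. With 1 array left out, where the lone array of a group is assumed to vary like the other group, carriers that rose numbered 3 to 6 and carriers that fell 0, genes that rose 901 to 1599 and genes that fell 883 to 1811, and members of the related lists 6 to 15 and 3 to 7. With no filter on dim probes, 1189 genes rose and 1209 fell of 20045, since more genes shared the adjustment, and 4 related genes fell; scaled to the median of the kept probes, 5 did. Scaled to the median of all probes, chosen after seeing the data, 1 carrier fell and SLC25A15, SLC25A16, SLC25A17 and SLC25A28, whose gene-level differences passed under no setting, stood at -0.044, -0.019, -0.021 and -0.016; the cause was not tested. With 1 array left out their differences ranged from -0.0069 to 0.066, -0.086 to 0.24, -0.055 to 0.14 and -0.067 to 0.12, and that of SLC25A46 from -0.16 to 0.017. The labels mark the second array of each group as a repeat and do not say what was repeated. For a knockdown and a control array of the same number, deviations from the group means correlated with r = -0.0060. With the replicate block 5 carriers rose, SLC25A10 not among them (limma adjusted p = 0.0598), and 0 fell. Over all genes 1724 rose and 1830 fell with that block. Without chromosome 16 genes, chosen after seeing the data, 6 carriers rose. With 2 arrays a group, small differences may go uncalled at any signal, more so near background.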
